A study of Arabidopsis thaliana with 9 samples.

Results

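Genes that moved the same way in heated Arabidopsis seedlings when the splicing factor SR45a was overexpressed and when it was disrupted are described here. All 9 libraries of the series entered the comparison: 3 of wild type (WT), 3 of seedlings overexpressing SR45a-1a (SR45a-1a-OE) and 3 of seedlings mutant for sr45a. Seedlings of each genotype were 2 weeks old, were grown on medium under long days and were held at 45 °C for 3 h before RNA was isolated, so no library is unheated. The 6 libraries of the overexpressor and the mutant, called the altered lines below, were set against the 3 WT libraries with equal weight for each line. Of 20103 genes tested, 139 passed the test in each line against WT with the same sign, 70 of them higher and 69 lower. These 139 genes are the ones described in most detail. The promoter of the transgene, the mutant allele and the number of independent plant lines behind either genotype are not given in the sources used here. The 3 libraries of a genotype may or may not be separate cultures, which the labels leave unsaid, so a p-value here reflects library-to-library spread that can be partly technical.

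SR45a (AT1G07350) is the gene of a serine/arginine-rich RNA-binding protein that takes part in choosing splice sites. Plants adjust splicing widely in heat, and SR45a itself is spliced into several forms. Several of the gene groups below belong to known nutrient and detoxification programmes of the seedling. When phosphate runs short, the factor PHR1 switches on phosphate importers, phosphatases and enzymes that replace membrane phospholipids with galactolipids and sulfolipids, while SPX proteins hold PHR1 in check. When sulfate runs short, plants raise sulfate transport, break down glucosinolates and glutathione, and express small regulators of the SDI and LSU families. Glutathione transferases and several cytochromes P450 modify foreign or oxidised compounds and are induced together by many electrophilic chemicals.

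Levels are given in CPM, counts scaled to a common library size, and differences as log2 fold changes with the standard error (SE). Tests were edgeR's quasi-likelihood F tests, p-values were adjusted by Benjamini-Hochberg over all genes tested, and a gene was called below an adjusted p of 0.05. Libraries held 18036195 to 21864604 gene counts. Along the leading principal component (36.6% of the variance), SR45a-1a-OE replicate 3 (16.21 against 48.28 and 47.02) and sr45a replicate 3 (4.70 against −25.35 and −22.24) stood apart from their groups. SR45a followed the labels, at 401 to 433 CPM in WT, 1010 to 1173 CPM in SR45a-1a-OE and 1.90 to 7.27 CPM in sr45a, and its average over both lines therefore describes neither. Summed CPM of the root markers overlapped between genotypes, at 1116 to 1347 in WT, 1182 to 1384 in SR45a-1a-OE and 1059 to 1254 in sr45a. The photosynthesis genes summed to 73410 CPM or more in every library, and the flower markers to at most 10.7 CPM.

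Averaged over both lines, 1481 genes (7.37% of those tested) differed from WT, 576 higher (2.87%) and 905 lower (4.5%). At an unadjusted p under 0.05 there were 5055. Most of these calls leaned on the overexpressor: 1144 of the 1481 were also called in SR45a-1a-OE alone and not in sr45a, 112 in sr45a and not in SR45a-1a-OE, and 85 in neither line by itself. In 25 of them the lines had opposite signs. A stricter reading required the same sign in each line and all 6 altered libraries on one side of the 3 WT libraries, and 1075 genes (5.35%) met it, 444 higher (2.21%) and 631 lower (3.14%). Without any test, 2340 genes (11.6%) had all 6 altered libraries above WT (5.26%) or below it (6.38%).

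The count of 139 genes called in each line is 0.691% of the genes tested, with 0.348% higher and 0.343% lower. Both comparisons use the same WT libraries, so the 139 are a description and not 2 independent sightings. SR45a-1a-OE against WT called 15.3% of genes and sr45a against WT 1.62%. In 138 of the 139 the altered and WT libraries did not overlap; the exception was the glutathione transferase GSTF7. Changes of at least 2-fold in each line were found in 35 of the higher and 13 of the lower genes. The median log2 fold change was 1.17 over the higher and −0.73 over the lower genes, against 0.0017 over all genes tested. The test selected the members, so the size of these medians follows in part from the selection. In contrast, 8 genes were called in each line with opposite signs (0.0398%), among them SR45a.

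**Figure D1:**
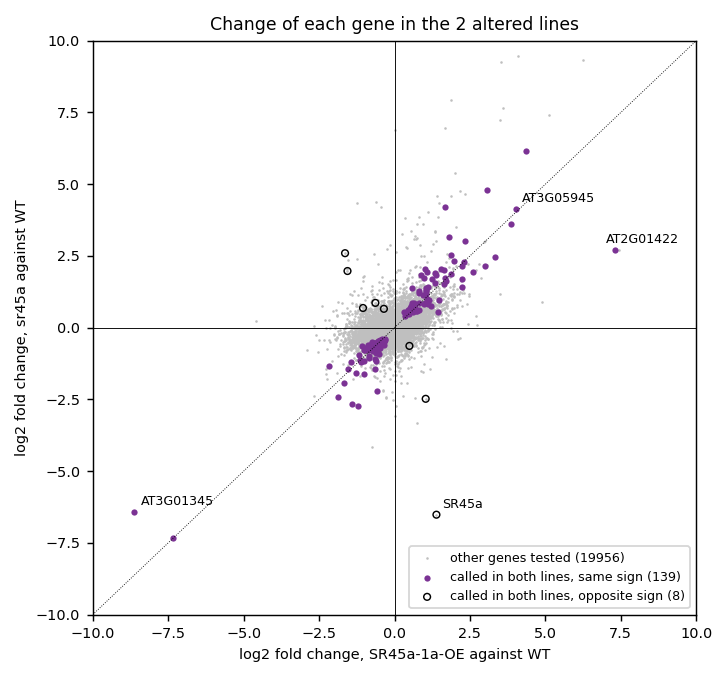
Log2 fold change of each of 20103 genes against WT in SR45a-1a-OE (horizontal axis) and in sr45a (vertical axis). Purple points are the 139 genes called in both lines with the same sign, open circles the 8 called with opposite signs, grey points all other genes, and the dotted line marks equal change. AT3G01345 lies at the lower left and AT2G01422 is far to the right of the dotted line; both axes share the WT libraries, which by itself draws points toward that line.

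The counts changed with single libraries. Leaving out WT replicate 2 left 42 pooled calls and 21 genes called in each line. Without WT replicate 1 the counts were 121 and 31, and without WT replicate 3 they were 378 and 53. Among the altered libraries, leaving out sr45a replicate 1, 2 or 3 left 56, 41 and 71 genes called in each line, and SR45a-1a-OE replicate 1 left 74. The pooled calls were 615 without SR45a-1a-OE replicate 1, 814 without sr45a replicate 2 and 834 without sr45a replicate 3. Leaving out SR45a-1a-OE replicate 3 raised both counts, to 2488 and 230. All 139 genes kept their pooled sign in every one of these fits. In 138 of them the altered and WT libraries do not overlap, so leaving out 1 library could hardly reverse that sign. The sign within each line was not compared. An adjusted p under 0.01 was reached by 84 genes in the pooled comparison, 54 of them among the 139, and by 15 of the 139 in each line. Among the 84 genes that the naming rule took from the pooled calls, those still called in the pooled comparison under all 20 alternatives were AT3G05945, PGL5, ENODL16, AT3G17520, AT3G01345, SDI1, COR413IM1, BGLU28, HEI10, AT2G28990 and SQD2, 11 in all.

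Among shared genes with a mean of at least 5 CPM in WT or over the altered lines, 3 loci had the largest differences. AT3G01345 (chromosome 3, 129138–130749, plus strand, TAIR10.1), annotated only as an expressed protein, stood at 321, 337 and 317 CPM in WT. It was at 0.597, 0.833 and 1.02 CPM in SR45a-1a-OE and at 3.38, 2.38 and 5.47 CPM in sr45a. Its log2 fold change was −8.62 (SE 0.28, adjusted p = 1.15e-08, edgeR) in the overexpressor and −6.43 (SE 0.24, adjusted p = 1.14e-07) in the mutant, and the lines differed from each other by −2.18 (adjusted p = 0.00285). All 6 altered libraries were thus far below every WT library, and the residual level was higher in the mutant.

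A pair of non-coding RNA genes moved in the opposite direction. AT3G05945 (chromosome 3, 11510090–11510510, minus strand) was at 0.532, 0.781 and 0.882 CPM in WT, at 13.0, 7.08 and 15.73 CPM in SR45a-1a-OE and at 13.6, 14.9 and 9.90 CPM in sr45a. Its rise was alike in size, with log2 fold changes of 4.02 (SE 0.34) and 4.12 (SE 0.34), and the difference between the lines was −0.10 with a 95% interval of −0.65 to 0.45. AT2G01422 (chromosome 2, 183940–184734, plus strand) was at 0.133, 0.184 and 0.139 CPM in WT, 26.0, 23.4 and 25.8 CPM in SR45a-1a-OE and 0.971, 0.89993 and 1.19 CPM in sr45a. Both lines lay above WT at AT2G01422, yet the overexpressor exceeded the mutant by 4.61 on the log2 scale (adjusted p = 4.37e-08). A further non-coding gene, AT4G05025, had 63 counts over the WT libraries and 0 counts in all 6 altered libraries, at least 6.51-fold lower with the altered libraries set to a floor of 3 counts each. Over all 398 non-coding RNA genes tested, 11 were called higher and 12 lower in the pooled comparison, and 3 and 1 in each line. The shares over all genes were 2.87% and 4.5% in the pooled comparison and 0.348% and 0.343% in each line.

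**Figure D2:**
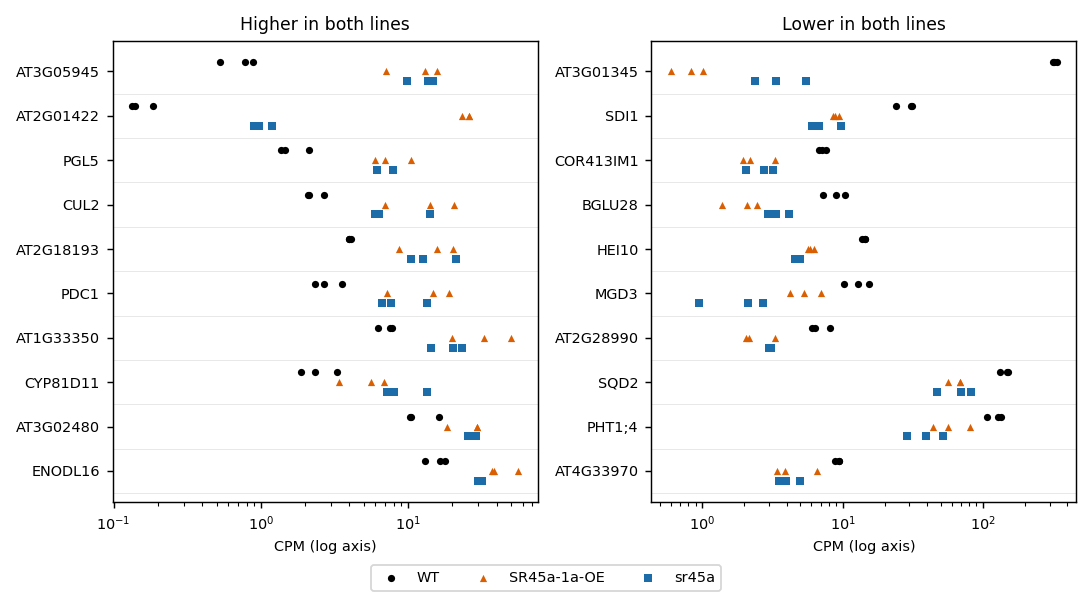
CPM in each library (horizontal log axis) for the 10 genes with the largest shared rise (left) and the 10 with the largest shared fall (right), ranked by the smaller change of the lines, among genes reaching a mean of 5 CPM. Black circles are WT, orange triangles SR45a-1a-OE and blue squares sr45a, 3 libraries each. Genes entered only if the altered libraries lay on one side of WT, so this holds for each of the 20 by selection. For AT3G02480 and CYP81D11 the gap to WT is narrow.

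Among the other genes with the largest shared rises were enzymes of sugar and fermentation metabolism. PGL5, which encodes a 6-phosphogluconolactonase of the oxidative pentose phosphate pathway, was at 1.46, 1.38 and 2.14 CPM in WT, 10.4, 6.94 and 5.99 CPM in SR45a-1a-OE and 7.95, 6.19 and 7.96 CPM in sr45a. All 6 altered libraries were above the highest WT library, as the naming rule required. The pooled log2 fold change was 2.19 (SE 0.23, adjusted p = 0.00141, edgeR). PDC1 (AT4G33070), the pyruvate decarboxylase that opens ethanol fermentation, stood at 2.35, 3.59 and 2.69 CPM in WT, 14.7, 19.1 and 7.19 CPM in SR45a-1a-OE and 6.61, 7.62 and 13.5 CPM in sr45a. The 2 libraries that stood apart lay on opposite sides here: replicate 3 was the lowest of SR45a-1a-OE and the highest of sr45a. The pooled log2 fold change of PDC1 was 1.96 (SE 0.33, adjusted p = 0.0111).

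The same crossing of replicates was visible in other risers. CUL2, a cullin gene whose family forms the scaffold of ubiquitin ligases, was at 2.08 to 2.67 CPM in WT, 14.1, 20.4 and 7.01 CPM in SR45a-1a-OE and 5.97, 6.35 and 14.04 CPM in sr45a. AT2G18193, a P-loop nucleoside triphosphatase gene, was at 3.95 to 4.08 CPM in WT, 15.8, 20.08 and 8.63 CPM in SR45a-1a-OE and 12.6, 10.4 and 21.4 CPM in sr45a. For both genes SR45a-1a-OE replicate 3 was nearest to WT and sr45a replicate 3 farthest. Across the 139 genes, SR45a-1a-OE replicate 3 was nearest to WT of its line in 78 and sr45a replicate 3 in 25. With both of these libraries left out, 143 genes were called in each line, 90 of them among the 139, and the 139 all kept their pooled call.

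Other genes of the rising group were ENODL16, an early nodulin-like plasma membrane protein gene, at 13.1, 16.5 and 17.83 CPM in WT, 56.2, 37.0 and 38.3 CPM in SR45a-1a-OE and 30.6, 30.1 and 32.1 CPM in sr45a. The pentatricopeptide repeat gene AT1G33350, of a family that acts on organelle RNA, rose from 6.25–7.77 CPM to 14.3–50.02 CPM, with a pooled log2 fold change of 1.83 (SE 0.27, adjusted p = 0.0076). Outside the naming rule and chosen after its values were seen, the light-stress protein gene ELIP2 stood at 0.709 to 0.929 CPM in WT, 3.90 to 8.33 CPM in SR45a-1a-OE and 2.59 to 4.28 CPM in sr45a.

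Several detoxification genes rose. Of 26 antioxidant and glutathione transferase genes tested, 9 were called higher and 1 lower in the pooled comparison, 4 of them higher in each line, and the list's median log2 fold change was 0.39 against 0.0017 over all genes. The shares of all genes tested were 2.87%, 4.5% and 0.348%. GSTU19, a tau-class glutathione transferase, was at 801, 946 and 949 CPM in WT, 2202, 1674 and 1375 CPM in SR45a-1a-OE and 1472, 1430 and 1888 CPM in sr45a. Its lowest altered library was well above its highest WT library, and the pooled log2 fold change was 0.90 (SE 0.16, adjusted p = 0.0121). The tandem neighbours GSTU24 and GSTU25 on chromosome 1 rose as a pair. Leaving out WT replicate 1, 2 or 3 left 2, 1 and 5 higher calls in this list. Of the 4 in each line, 1 or none was left without WT replicate 1 or 2 or sr45a replicate 1 or 2, and 2 were left without sr45a replicate 3 or SR45a-1a-OE replicate 1.

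GSTU24 stood at 0.222 to 0.929 CPM in WT and 1.58 to 2.65 CPM in the altered lines. GSTU25 stood at 0.133 to 0.604 CPM in WT and 1.21 to 2.44 CPM in the altered lines. GSTF7, a phi-class member, was at 3.63, 4.69 and 6.59 CPM in WT, 15.9, 12.6 and 6.54 CPM in SR45a-1a-OE and 15.45, 18.1 and 15.38 CPM in sr45a, so that SR45a-1a-OE replicate 3 fell within WT. These genes have close relatives next to them, and how reads that match several were counted is not given in the sources used here, so the split between neighbours is uncertain. GSTF6, beside GSTF7, was called in the pooled comparison (1.86, SE 0.22, adjusted p = 0.00321) but the mutant carried it: the log2 fold change was 0.64 (adjusted p = 0.104) in SR45a-1a-OE and 3.08 (adjusted p = 8.27e-05) in sr45a. CAT3, a catalase gene, was the single member called lower (−0.59, SE 0.12, adjusted p = 0.0176).

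The cytochromes P450 CYP81D11 and CYP81D8, genes of the same family known to respond to electrophilic compounds, were also higher in each line. CYP81D11 was at 1.86, 2.34 and 3.298 CPM in WT, 6.91, 5.64 and 3.39 CPM in SR45a-1a-OE and 8.05, 7.25 and 13.5 CPM in sr45a. Its SR45a-1a-OE replicate 3 was barely above the highest WT library. CYP81D8 stood at 0.650 to 1.06 CPM in WT and 1.76 to 3.75 CPM in the altered lines. Among all 163 genes annotated as cytochrome P450, a grouping made after values were seen, 10 were higher, 7 lower and 2 higher in each line. Over all genes tested these shares were 2.87%, 4.5% and 0.348%, and the family was not tested as a set.

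Seed and desiccation genes formed the second group of risers, at low levels. Seed storage proteins and oil body proteins fill the maturing embryo and are normally off in leaves, and late embryogenesis abundant (LEA) proteins protect drying cells. Of 14 seed storage and oil body genes that passed the filter on low counts, 10 were called higher in the pooled comparison, 3 of them in each line; 5 others of the list did not pass it. A gene of this list could pass that filter through the altered lines alone, so its counts are a description. Of all genes tested 2.87% were higher in the pooled comparison and 0.348% in each line. OLEO1, an oleosin that coats oil bodies, was at 0.0443, 0.0460 and 0 CPM in WT, 0.298, 0.463 and 0.139 CPM in SR45a-1a-OE and 1.53, 0.953 and 0.547 CPM in sr45a. Even the highest of these levels is close to 1 CPM. PER1, a seed peroxiredoxin, stood at 0.0886 to 0.557 CPM in WT, 0.650 to 1.62 CPM in SR45a-1a-OE and 2.19 to 3.24 CPM in sr45a.

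The summed CPM of the seed list was 3.85 to 4.41 in WT, 6.13 to 18.18 in SR45a-1a-OE and 36.7 to 69.8 in sr45a. The genotypes did not overlap, and the mutant held most of it. CRA1, a cruciferin, was called between the lines as well, with SR45a-1a-OE lower than sr45a by −3.16 (adjusted p = 0.00151), and was at 0.443 to 0.644 CPM in WT, 0.650 to 2.78 CPM in SR45a-1a-OE and 11.1 to 15.68 CPM in sr45a. Leaving out WT replicate 1 left 1 of the 14 genes called, WT replicate 2 none, WT replicate 3 left 3, SR45a-1a-OE replicate 1 or 2 left 6 and 5, and sr45a replicate 2 left 6. The 3 calls in each line went to 0 without WT replicate 1 or 2, SR45a-1a-OE replicate 1 or 2, or sr45a replicate 2, to 1 without sr45a replicate 1, and to 5 without SR45a-1a-OE replicate 3. With both libraries that stood apart left out, 12 were called, 7 of them in each line. In 4 of the 14 genes all WT libraries were at 0 counts; SESA1, a 2S albumin, had 0 counts in WT, 6 counts in SR45a-1a-OE and 251 counts in sr45a, at least 30.7-fold higher in sr45a with WT set to 3 counts per library. The list's median pooled log2 fold change was 3.70 as fitted and 2.89 with those 4 genes at their bounds. Whole seedlings were sampled, so more cells of a type and more RNA per cell cannot be told apart.

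LEA genes were among the 139 as well. AT3G02480 was at 10.4, 10.5 and 16.1 CPM in WT, 29.6, 18.3 and 29.2 CPM in SR45a-1a-OE and 28.8, 28.6 and 25.6 CPM in sr45a (pooled log2 fold change 1.11, SE 0.18, adjusted p = 0.0105). Its lowest altered library, SR45a-1a-OE replicate 2, came near the highest WT value. AT3G17520 was at 0.886, 0.690 and 1.21 CPM in WT, 2.78, 3.66 and 2.18 CPM in SR45a-1a-OE and 3.79, 3.49 and 3.83 CPM in sr45a. The descriptions were searched, after values were seen, for the lower-case phrase late embryogenesis abundant or the capitals LEA, also inside longer words. The search found 56 genes, which may include some that are not LEA genes. Of these, 11 were called higher, 1 lower, and 4 higher in each line, against 2.87%, 4.5% and 0.348% of all genes tested. The search missed LEA18, described with a capital letter. LEA18 was also higher in each line, by 0.96 in SR45a-1a-OE and 1.74 in sr45a. The abscisic acid and dehydration list, which holds genes that drying and abscisic acid induce, was less uniform: 4 of 26 were called higher and 1 lower, none in each line, with a median of 0.01. RAB18, a dehydrin, stood at 6.48 to 8.87 CPM in WT and 11.1 to 19.6 CPM in the altered lines (pooled adjusted p = 0.0202), and in sr45a alone it missed the threshold (adjusted p = 0.0568).

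**Figure D3:**
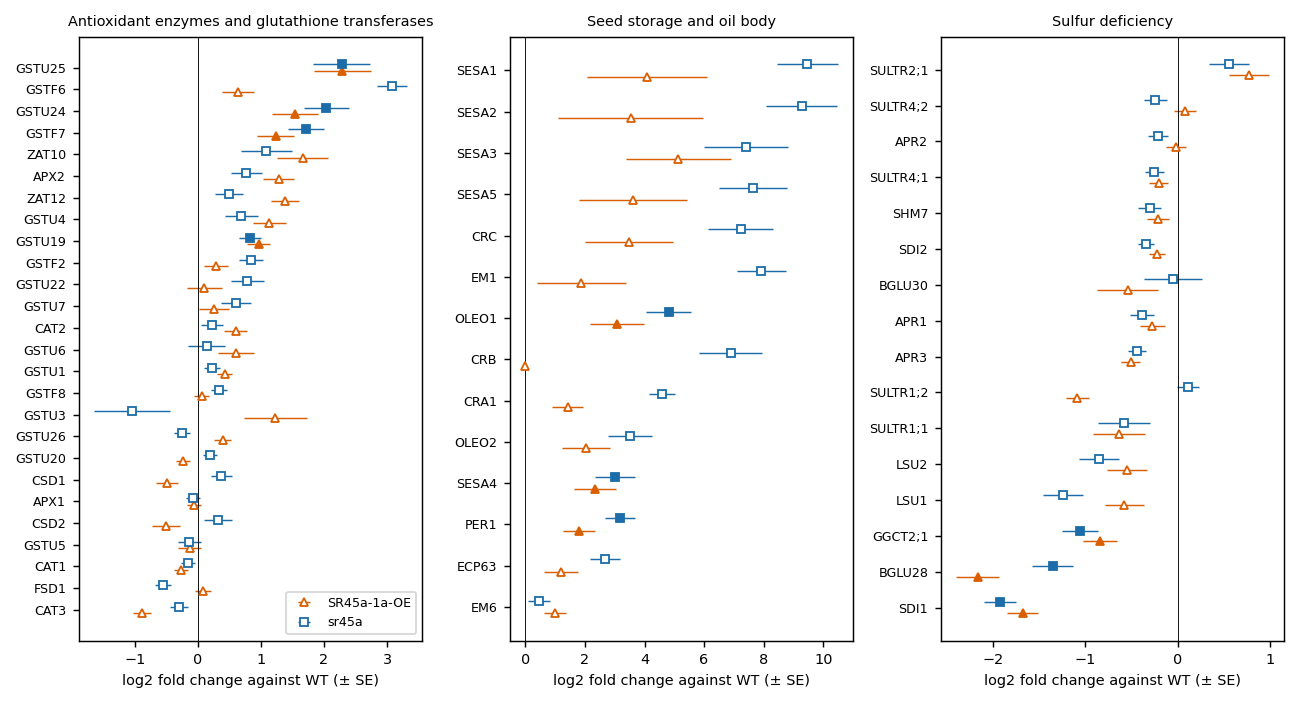
Log2 fold change against WT (± SE, 3 libraries per group) of each tested gene in 3 lists, with SR45a-1a-OE as orange triangles and sr45a as blue squares; filled symbols mark genes called in both lines. GSTU24, GSTU25, GSTU19 and GSTF7 lie to the right in both lines and SDI1, BGLU28 and GGCT2;1 to the left; for seed genes with WT at 0 counts (SESA1, SESA2, EM1, CRB) the plotted value is a fitted one that depends on the prior count.

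Sequence upstream of the rising genes was examined next. Besides the G-box, and the P1BS sequence and evening element given below, the following motifs were searched. In 300 bp the heat shock element core (GAANNTTC) was in 5.71% of the 70 higher genes, 15.9% of the 69 lower and 11.3% of all. The W-box core (TTGAC), MSA core (AACGG) and TATA box (TATATAA) were in 57.1%, 24.3% and 25.7% of the higher genes. Their shares over all genes were 50.2%, 24.5% and 21.8%. The G-box, CACGTG, is a palindrome that basic leucine zipper factors of abscisic acid signalling and basic helix-loop-helix factors bind. It occurred in the 300 bp before the annotated gene start in 18 of the 70 higher genes (25.7%), in 73 of the 444 genes called higher in the pooled comparison with all 6 altered libraries above WT (16.4%) and in 1603 of all 19952 genes with such a window (8.03%). Of the 69 lower genes 5 held it (7.25%). In a window of 1000 bp the shares were 31.4% of the 70 and 15.9% of all genes. No other annotated gene lay in 14 of the 18 windows, while those of CYP81D8 and AT1G72100 overlapped AT4G37380 and AT1G72090. The 18 include OLEO1, SESA4, PER1, PGL5, CYP81D11, CYP81D8, LEA18 and the LEA genes AT3G02480, AT3G17520, AT3G53040 and AT1G72100. The windows of 6 of them follow, because these genes carry the groups described above; each runs 5′ to 3′ toward the gene from the RefSeq TAIR10.1 genome, with the G-box in capitals.
OLEO1, chr4:12900130-12900429, plus strand: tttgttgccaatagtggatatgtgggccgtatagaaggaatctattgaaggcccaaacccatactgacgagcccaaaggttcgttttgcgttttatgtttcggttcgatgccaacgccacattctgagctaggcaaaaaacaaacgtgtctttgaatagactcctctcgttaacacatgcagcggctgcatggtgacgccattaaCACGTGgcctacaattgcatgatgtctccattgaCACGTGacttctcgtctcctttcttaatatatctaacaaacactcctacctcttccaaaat
PGL5, chr5:8338033-8338332, minus strand: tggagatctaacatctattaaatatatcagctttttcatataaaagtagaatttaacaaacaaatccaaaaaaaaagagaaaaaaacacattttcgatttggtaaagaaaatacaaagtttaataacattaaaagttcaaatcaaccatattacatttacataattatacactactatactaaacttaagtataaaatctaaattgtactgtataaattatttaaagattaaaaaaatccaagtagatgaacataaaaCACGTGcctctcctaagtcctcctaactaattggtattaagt
PER1, chr1:17780129-17780428, plus strand: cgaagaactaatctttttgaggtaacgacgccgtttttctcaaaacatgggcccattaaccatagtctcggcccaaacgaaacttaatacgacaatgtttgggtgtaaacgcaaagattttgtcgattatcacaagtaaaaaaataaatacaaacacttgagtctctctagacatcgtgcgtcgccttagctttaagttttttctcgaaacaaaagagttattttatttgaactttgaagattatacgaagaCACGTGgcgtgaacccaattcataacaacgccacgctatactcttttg
CYP81D11, chr3:10790554-10790853, minus strand: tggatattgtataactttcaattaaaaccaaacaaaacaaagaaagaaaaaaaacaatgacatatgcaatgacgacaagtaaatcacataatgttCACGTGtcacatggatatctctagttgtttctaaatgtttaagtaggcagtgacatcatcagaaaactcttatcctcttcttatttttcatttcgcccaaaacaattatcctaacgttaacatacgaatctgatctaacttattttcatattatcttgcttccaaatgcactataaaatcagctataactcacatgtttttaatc
AT3G02480, chr3:511920-512219, plus strand: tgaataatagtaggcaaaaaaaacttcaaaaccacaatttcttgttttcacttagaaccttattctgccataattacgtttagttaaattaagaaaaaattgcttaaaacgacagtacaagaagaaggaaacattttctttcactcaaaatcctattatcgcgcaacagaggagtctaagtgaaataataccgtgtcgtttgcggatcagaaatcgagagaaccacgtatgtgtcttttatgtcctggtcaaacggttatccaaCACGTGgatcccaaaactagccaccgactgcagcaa
AT3G17520, chr3:6000448-6000747, minus strand: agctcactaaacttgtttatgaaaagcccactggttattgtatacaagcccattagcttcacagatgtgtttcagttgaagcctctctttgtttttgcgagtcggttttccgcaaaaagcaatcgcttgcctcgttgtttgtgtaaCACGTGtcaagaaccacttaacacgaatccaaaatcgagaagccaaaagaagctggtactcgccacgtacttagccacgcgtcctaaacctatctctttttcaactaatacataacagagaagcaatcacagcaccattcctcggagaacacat
In OLEO1 the motif begins 95 and 61 bp before the gene start, in PGL5 42 bp, in PER1 48 bp and in AT3G02480 36 bp. In CYP81D11 and AT3G17520 it lies farther away, at 205 and 154 bp. These matches are descriptions of the sequence and were not tested as binding sites.

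Among the 24 lists, phosphate starvation held the most genes that were lower in each line. Of 26 list members tested, 16 were called lower and none higher in the pooled comparison, and 7 were lower in each line. The shares over all genes tested were 4.5%, 2.87% and 0.343%. Without WT replicate 1, 2 or 3, 10, 3 and 8 members were called lower and 5, 1 and 2 in each line; without SR45a-1a-OE replicate 1, 13 and 2, and without sr45a replicate 2, 15 and 4. The list's median log2 fold change was −0.68 in the pooled comparison, −0.27 in SR45a-1a-OE and −1.06 in sr45a. The 7 are the importers PHT1;1 and PHT1;4, the lipid enzymes MGD2, MGD3, SQD1 and SQD2, and the acid phosphatase PAP12. Both steps of sulfolipid synthesis and both galactolipid synthases of the phosphate-starvation response are among them.

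PHT1;4, a high-affinity phosphate importer, stood at 107, 128 and 134 CPM in WT, 56.4, 81.3 and 44.1 CPM in SR45a-1a-OE and 52.3, 39.2 and 28.9 CPM in sr45a. As the naming rule required, all altered libraries were lower than the lowest WT library (pooled log2 fold change −1.32, SE 0.19, adjusted p = 0.0076, edgeR). PHT1;1 was at 147, 142 and 145 CPM in WT, 93.2, 95.1 and 69.2 CPM in SR45a-1a-OE and 103, 86.4 and 80.3 CPM in sr45a. Its change was nearly the same in each line, at −0.75 and −0.68, with a 95% interval of −0.36 to 0.22 for the difference. PHT1;1 shares most of its sequence with PHT1;2, so reads between them may be divided uncertainly.

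SQD2, which completes the sulfolipid, was at 132, 151 and 149 CPM in WT, 56.2, 68.6 and 68.2 CPM in SR45a-1a-OE and 82.3, 69.5 and 47.3 CPM in sr45a. The fall of SQD2 amounted to −1.16 (SE 0.17, adjusted p = 0.00337) in the overexpressor and −1.11 (SE 0.17, adjusted p = 0.00809) in the mutant. SQD1, which makes the sulfolipid head group, stood at 461 to 530 CPM in WT, 312 to 419 CPM in SR45a-1a-OE and 285 to 352 CPM in sr45a. Here too neither line overlapped WT. MGD3 and MGD2, which make galactolipid outside the main plastid route, fell further in the mutant. MGD3 was at 10.3, 12.9 and 15.3 CPM in WT, 4.23, 7.08 and 5.29 CPM in SR45a-1a-OE and 2.73, 2.12 and 0.946 CPM in sr45a, and the lines differed by 1.51 (adjusted p = 0.0183). For MGD2 that difference was 0.82 (adjusted p = 0.018).

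Other members of the list moved in sr45a alone or apart. SPX3, a phosphate sensor gene, was at 2.04, 3.13 and 3.34 CPM in WT, 2.69, 3.42 and 2.46 CPM in SR45a-1a-OE and 0.324, 0.476 and 0.199 CPM in sr45a. The overexpressor thus overlapped WT at SPX3 while the mutant lay below it. AT4, a non-coding RNA that sequesters a microRNA of phosphate signalling, had a log2 fold change of 0.41 (adjusted p = 0.166) in SR45a-1a-OE and −1.95 (adjusted p = 0.000766) in sr45a, and IPS1, of the same kind, had −0.06 and −2.53. PHR1 itself was not called in the pooled comparison; its 6 altered libraries, 27.8 to 37.7 CPM, all lay above the WT values of 25.3 to 27.4 CPM. The P1BS sequence that PHR1 binds (GNATATNC) was present within 300 bp before the gene in 7 of the 26 list members (26.9%), 1 of the 7 called in each line (14.3%) and 6.58% of all genes. Within 1000 bp it was present in 53.8% of the list, 42.9% of the 7 and 20.3% of all genes.

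**Figure D4:**
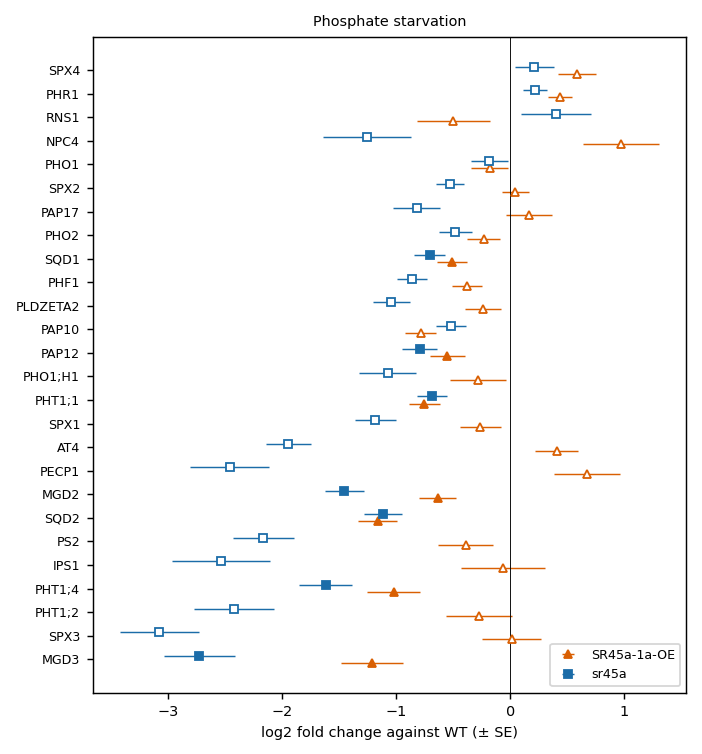
Log2 fold change against WT (± SE, 3 libraries per group) of the 26 phosphate starvation genes tested, ordered by the pooled change, with SR45a-1a-OE as orange triangles and sr45a as blue squares. Filled symbols mark the 7 genes called in both lines; SPX3, IPS1, AT4 and PHT1;2 show blue squares far to the left and triangles within 0.5 of 0.

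Part of the sulfur deficiency list was lower as well. Of 16 genes tested, 8 were called lower and none higher, 3 of them in each line, with a median log2 fold change of −0.40. Of all genes tested 4.5% were lower, 2.87% higher and 0.343% lower in each line. Leaving out WT replicate 1, 2 or 3 left 5, 2 and 4 lower calls, and 1 gene was called in each line without WT replicate 2 or sr45a replicate 2. SDI1, a repressor of glucosinolate synthesis that marks sulfur shortage, was at 24.2, 31.2 and 30.5 CPM in WT, 9.50, 8.51 and 8.82 CPM in SR45a-1a-OE and 9.80, 6.83 and 6.02 CPM in sr45a. The altered lines lay close together at well under the WT level (pooled log2 fold change −1.80, SE 0.14, adjusted p = 0.000118), and the difference between them had a 95% interval of −0.15 to 0.63. BGLU28, a beta-glucosidase that breaks down glucosinolates in sulfur shortage, stood at 7.31, 9.06 and 10.4 CPM in WT, 1.39, 2.08 and 2.46 CPM in SR45a-1a-OE and 4.16, 3.33 and 2.94 CPM in sr45a. GGCT2;1, a gamma-glutamyl cyclotransferase of glutathione breakdown, was at 10.2 to 13.98 CPM in WT, 6.07 to 7.22 CPM in SR45a-1a-OE and 4.18 to 7.12 CPM in sr45a. LSU1, LSU2, APR3, SDI2 and the sulfate transporter SULTR1;2 made up the other pooled calls; SULTR1;2 had −1.09 in SR45a-1a-OE and 0.11 in sr45a.

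Among the strongest shared falls outside these lists was HEI10, a RING-domain E3 ligase gene known for promoting meiotic crossovers. HEI10 was at 14.4, 13.7 and 14.5 CPM in WT, 5.72, 5.83 and 6.22 CPM in SR45a-1a-OE and 4.95, 4.55 and 4.78 CPM in sr45a. The spread within each group was small beside the gap (pooled log2 fold change −1.42, SE 0.10, adjusted p = 4.88e-05). On chromosome 1 it overlaps AT1G53480 on the opposite strand by 1446 bp and AT1G07887 on the same strand by 839 bp. Whether counting used strand is not given in the sources used here, and strand could not separate the same-strand overlap. The reads of these overlaps therefore cannot be assigned to a single gene.

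COR413IM1, a cold-regulated protein of the chloroplast inner membrane, was at 7.09, 7.68 and 6.78 CPM in WT, 2.19, 1.94 and 3.29 CPM in SR45a-1a-OE and 3.19, 2.75 and 2.04 CPM in sr45a. The leucine-rich repeat kinase gene AT2G28990 stood at 6.07 to 8.20 CPM in WT, 2.04 to 3.29 CPM in SR45a-1a-OE and 3.01 to 3.09 CPM in sr45a. The leucine-rich repeat gene AT4G33970 fell from 8.78–9.48 CPM to 3.42–6.54 CPM. In none of these genes did an altered library reach WT, which was a condition of the naming rule. AT4G33970 is overlapped by AT4G03355 on the opposite strand over 1186 bp and AT2G28990 by AT2G08310 over 203 bp, so the same limit on strand applies to both. Outside the naming rule and chosen after their values were seen, SEX1, the glucan, water dikinase that starts starch breakdown, was at 385, 323 and 310 CPM in WT, 149, 158 and 198 CPM in SR45a-1a-OE and 216, 183 and 192 CPM in sr45a, and PIF4, a light and temperature transcription factor, was at 91.3 to 99.8 CPM in WT and 49.6 to 73.7 CPM in the altered lines.

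The evening element AAAATATCT, bound by clock factors of the MYB family, was found on either strand of the 300-bp window in 7 of the 69 lower genes (10.1%), none of the 70 higher genes and 2.85% of all genes. In the 631 genes called lower in the pooled comparison with all 6 altered libraries below WT the share was 4.12%. The clock list had 1 of 20 genes called in the pooled comparison, CHE (−0.51, SE 0.12, adjusted p = 0.0273). Of all genes tested 7.37% were called, so the clock list did not exceed that share. A pair of the 7 windows is given, for GGCT2;1 from the sulfur list and for CCR1 (AT4G39260), a glycine-rich RNA-binding protein gene under clock control, with the element in capitals in either orientation.
GGCT2;1, chr5:9164885-9165184, minus strand: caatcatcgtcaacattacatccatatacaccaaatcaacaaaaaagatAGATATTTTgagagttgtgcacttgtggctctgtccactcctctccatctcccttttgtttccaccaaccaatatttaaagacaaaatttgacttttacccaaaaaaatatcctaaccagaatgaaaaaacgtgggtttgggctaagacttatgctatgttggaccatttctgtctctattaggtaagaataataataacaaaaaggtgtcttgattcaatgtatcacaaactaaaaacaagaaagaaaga
CCR1, chr4:18275217-18275516, minus strand: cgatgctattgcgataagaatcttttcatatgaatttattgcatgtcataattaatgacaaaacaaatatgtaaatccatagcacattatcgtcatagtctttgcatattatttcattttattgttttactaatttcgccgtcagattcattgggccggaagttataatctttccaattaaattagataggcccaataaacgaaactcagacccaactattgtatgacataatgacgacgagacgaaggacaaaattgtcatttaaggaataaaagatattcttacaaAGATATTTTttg
CCR1 was at 280, 279 and 341 CPM in WT, 216, 213 and 229 CPM in SR45a-1a-OE and 195, 215 and 188 CPM in sr45a. The element begins 251 bp before the start of GGCT2;1 and 12 bp before that of CCR1.

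In the 4 lists of heat shock factors, heat shock proteins and chaperones, genes were called in the pooled comparison but none in each line by edgeR; with DESeq2, 3 small heat shock proteins and 1 heat shock factor were higher and 1 large chaperone lower in each line. Outside these lists, and chosen after their values were seen, MGE1, a GrpE family co-chaperone gene, was higher in each line (adjusted p = 0.0379 and 0.036), as was the peptidyl-prolyl isomerase gene AT1G01940 (adjusted p = 0.00405 and 0.0321). In the pooled comparison 2.87% of all genes tested were higher and 4.5% lower. Of 15 small heat shock proteins, which bind unfolding proteins, 5 were higher and none lower, all 5 with every altered library above WT, and the median was 0.49. None of the 5 was called without any 1 of the WT libraries, 3 members were called without SR45a-1a-OE replicate 1 or sr45a replicate 2 or 3, 9 without SR45a-1a-OE replicate 3, 2 with the length trend described below removed, and 8 without both libraries that stood apart. HSP17.8 was at 418, 431 and 480 CPM in WT and 587 to 1750 CPM in the altered lines, with an adjusted p of 0.00511 in SR45a-1a-OE and 0.182 in sr45a. Among 19 heat shock factors, 3 were higher (HSFA7B, HSFA3 and HSFA1E), each with a larger change in SR45a-1a-OE than in sr45a by the test between the lines. Of 26 large chaperones and co-chaperones 2 were higher (HSP70B, HSA32) and 3 lower (HSP90.3, HSP90.6, HSC70-2); without WT replicate 1 or 2 none was called, without WT replicate 3 only 1 lower, and without SR45a-1a-OE replicate 1 none higher and 2 lower. Without any 1 of the sr45a libraries 1 was higher, and without SR45a-1a-OE replicate 3, 4 were. Endoplasmic reticulum chaperones and unfolded protein response genes had 9 of 29 called lower and none higher, with medians of −0.43 in SR45a-1a-OE and −0.17 in sr45a. Those calls were all lost when any 1 WT library, or SR45a-1a-OE replicate 1, was left out, and 2 were left without sr45a replicate 2 or 3. BIP2, the lumenal HSP70, was at 1494 to 1582 CPM in WT, 810 to 949 CPM in SR45a-1a-OE and 1199 to 1517 CPM in sr45a, so the mutant overlapped WT.

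Low-oxygen and fermentation genes had 5 of 13 called higher and none lower, 1 of them (PDC1) in each line, with a median of 0.78. Among all genes tested 2.87% were higher, 4.5% lower and 0.348% higher in each line. All 5 calls were lost without WT replicate 1 or 2, 2 members were called without SR45a-1a-OE replicate 1 or sr45a replicate 2, 3 without sr45a replicate 3, and 9 without SR45a-1a-OE replicate 3. ADH1, the alcohol dehydrogenase that follows PDC1, was at 8.92 to 14.2 CPM in WT, 24.6 to 33.2 CPM in SR45a-1a-OE and 16.7 to 26.47 CPM in sr45a. In sr45a alone its adjusted p was 0.0724. LBD41, PCO1 and PCO2 were the other pooled calls. Iron genes had 4 of 22 higher and 2 lower. Without WT replicate 1, 2 or 3 there were 2, 1 and 2 higher and 0, 0 and 1 lower, while 1 lower call was left without sr45a replicate 1 or 2 or SR45a-1a-OE replicate 1. FER2, a ferritin that stores iron, was higher in each line, at 7.62 to 8.60 CPM in WT, 13.0 to 19.8 CPM in SR45a-1a-OE and 13.6 to 15.38 CPM in sr45a. Outside the naming rule, the ferritin gene FER3 was called in each line with opposite signs. FER3 was at 61.9 to 87.5 CPM in WT, 92.35 to 115.8 CPM in SR45a-1a-OE and 43.7 to 49.2 CPM in sr45a. The iron regulator BHLH39 was carried by the mutant (3.19, adjusted p = 0.000122) more than the overexpressor (0.68, adjusted p = 0.15).

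In both cell wall lists the pooled calls were lower, with 1 exception. Of all genes tested 4.5% were lower, 2.87% higher and 0.343% lower in each line. Of 25 fasciclin-like arabinogalactan and cellulose synthesis genes 11 were called lower and none higher, with 1, CESA4 of secondary walls, in each line; the median was −0.61 in SR45a-1a-OE and −0.15 in sr45a. Without WT replicate 1, 2 or 3, 1, none and 5 members were called, 5 without SR45a-1a-OE replicate 1 and 7 without sr45a replicate 2. CESA4 stood at 50.4, 41.9 and 38.3 CPM in WT, 25.1, 31.6 and 27.3 CPM in SR45a-1a-OE and 31.6, 28.6 and 25.5 CPM in sr45a. Of 33 expansin and xyloglucan endotransglucosylase genes 8 were lower and 1 higher in the pooled comparison, and none was lower in each line. The list's median was −0.705 in SR45a-1a-OE and 0.108 in sr45a, so the list as a whole did not fall in both lines. With WT replicate 3 left out 1 member was lower, and with WT replicate 1 or 2 left out none. Lower calls numbered 3 without SR45a-1a-OE replicate 1 and 5 without sr45a replicate 2 or 3. The exception was XTH5, which was higher in each line, at 18.5 to 20.3 CPM in WT, 48.2 to 57.6 CPM in SR45a-1a-OE and 25.2 to 32.9 CPM in sr45a. The cellulose synthase-like neighbours CSLB03 and CSLB04 rose together, by 0.61 and 0.54 (adjusted p = 0.0111 and 0.0188). In the auxin response list 5 of 22 were lower and none higher, and at most 1 was called with any WT library, SR45a-1a-OE replicate 1 or sr45a replicate 2 left out; 13 were called without SR45a-1a-OE replicate 3, 3 without sr45a replicate 1 and 2 without sr45a replicate 3. BRU6, which conjugates auxin, was at 75.5 to 78.8 CPM in WT, 6.12 to 18.24 CPM in SR45a-1a-OE and 26.2 to 56.9 CPM in sr45a. Root markers PRP3, PRP1 and XTH14 were called lower out of 13 tested, while PYK10, a beta-glucosidase of root endoplasmic reticulum bodies, was not called.

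The remaining lists held few calls. For comparison, 2.87% of all genes tested were called higher and 4.5% lower in the pooled comparison. All pooled calls of the heat shock factor, dehydration, root marker, cell cycle, photosynthesis, jasmonate, flavonoid and clock lists were lost when any 1 WT library was left out, those of the glucosinolate list without WT replicate 1 or 2 and those of the glyoxylate list without WT replicate 2. The photosynthesis calls were also lost without SR45a-1a-OE replicate 1, sr45a replicate 1 or sr45a replicate 3. SR splicing factors had none in 19 genes in the pooled comparison, with a median of −0.04, and flower markers none in 3; edgeR's adjusted p was used for both. The cell cycle list had 2 of 26 higher (PCNA1 in each line, and CDKB1;2), photosynthesis 3 of 26 higher (PSBO2, GAPA, SBPASE), and glyoxylate cycle and fatty acid breakdown 2 of 19 higher (ICL and MLS, both carried by sr45a). Glucosinolate genes had 2 of 24 lower (CYP83A1, ESM1), jasmonate genes 2 of 19 lower (LOX2, JAR1), and flavonoid genes 1 higher (FLS1) and 1 lower (MYB111) of 7. Of the 139 genes, 22 belong to one of the 24 lists and 117 to none.

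A few of the 139 are neighbours with no tested gene between them. GSTU24 and GSTU25, and CSLB03 and CSLB04, rose as pairs, and AT1G08310, an alpha/beta-hydrolase gene, and TGA9, a bZIP factor gene, fell as a pair. AT1G08310 was at 12.6, 10.5 and 14.8 CPM in WT, 8.95, 9.07 and 7.33 CPM in SR45a-1a-OE and 2.50, 2.86 and 2.79 CPM in sr45a, and the lines differed by 1.64 (adjusted p = 0.000787). In the other two pairs the directions were opposite: the kinase gene CIPK1 fell by 0.41 beside the rising LEA gene AT3G17520, and the kinase gene AT4G33080 fell by 0.38 beside PDC1. Between the lines, 12 of the 139 differed in size, against 7.26% of all genes tested, and for the others a difference was not shown; the median half-width of its 95% interval was 0.33.

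Transcript length moved with the direction of change in both lines. Over 5 classes of equal size by length, from the shortest to the longest, the median pooled log2 fold change was 0.10, 0.05, 0.01, −0.03 and −0.11. In the shortest class 4.6% of genes were called higher and 1.74% lower, and in the longest 0.794% and 9.01%. The 139 genes followed it: 29 higher and 8 lower genes lay in the shortest class and 1 higher and 29 lower in the longest, with median lengths of 1299 bp and 2252 bp against 1775 bp over all genes. Of 121 leucine-rich repeat kinases 22 were lower and 2 higher. Of 102 genes whose description names kinesin, myosin or a microtubule motor 18 were lower and 2 higher, with 3 lower in each line. Over all genes tested 4.5% were lower and 2.87% higher. Both groups were made after values were seen and follow the words of the descriptions. With a length trend taken out of each library, 135 of the 137 genes that could be fitted kept their pooled call and 103 were still called in each line.

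**Figure D5:**
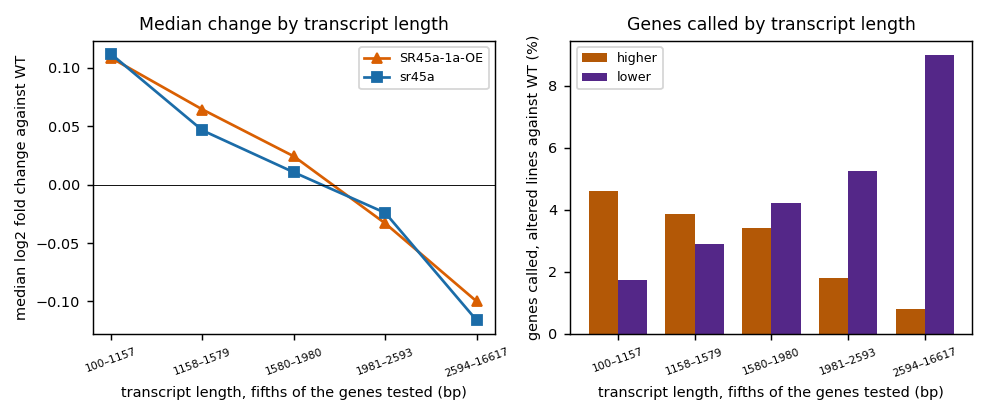
Left, median log2 fold change against WT over 5 equal classes of the tested genes by transcript length (in bp), SR45a-1a-OE as orange triangles and sr45a as blue squares. Right, the percentage of genes in each class called higher (brown) or lower (violet) in the pooled comparison, which goes from 4.6% higher and 1.74% lower in the shortest class to 0.794% and 9.01% in the longest.

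The transcript estimates were read for the 20 genes with the largest shared changes. The most abundant annotated transcript separated the 6 altered from the 3 WT libraries in the gene's direction in 17 of them. It did not for AT1G33350, MGD3 and SQD2. All 20 genes were selected for that separation at the gene level. As 13 of them have only 1 transcript, separation of those 13 was largely fixed beforehand. In SQD2 the most abundant transcript, AT5G01220.1, took 49.99% of the gene's FPKM in WT and 97.92% in the altered lines, and its levels overlapped between WT and the altered lines (29.1 ± 21.7 FPKM in WT, 27.5 ± 5.10 FPKM in SR45a-1a-OE and 30.2 ± 12.4 FPKM in sr45a, SD, n = 3). In HEI10 the most abundant transcript, AT1G53490.1, went from 4.46 ± 1.38 FPKM in WT to 0.618 ± 0.131 in SR45a-1a-OE and 0.245 ± 0.126 in sr45a, and from 90.33% to 44.58% of the gene's FPKM. These splits are the estimates of the authors' software and carry no test here.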

How the data were processed

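Total RNA of 9 heated seedling libraries was sequenced as 150-bp paired reads and filtered with fastp at a minimum length of 36 bp, per the labels' protocols. The aligner, counting program and strand setting are not given in the sources used here. The deposited gene table holds whole-number counts for 27218 genes, and the deposited FPKM tables hold, per the file headers, FPKM per gene and per transcript as the authors' software computed them; the transcript count table was not used. Gene coordinates equalled those of TAIR10.1 at both ends for 26961 of 26968 loci, which gave symbols, descriptions and the windows before each gene. The 43 genes without a locus were fitted but are not named.

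Counts were tested with edgeR 4.0.16 in R 4.3.3: TMM factors (0.935 to 1.048), genes kept by filterByExpr (genotype as group, count of at least 10, total of at least 15), a quasi-likelihood fit with each genotype as a coefficient, and F tests of the mean of both lines against WT, of each line against WT and of the lines against each other. SE were derived from the F statistics. Transcript length was taken from the ratio of count to FPKM. The script was tested on simulated data. Motifs were searched on both strands, and a window can hold several. Python 3.11.15, pandas 2.3.3 and matplotlib 3.10.9 made tables and figures. Counts also carry counting error, which is relatively large for genes with few counts, and bounds against groups at 0 (floor of 3 counts per library) cover counting error only.

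The members, the 24 gene lists and the naming rule were chosen with earlier results of these data known. The rule named SR45a, the 10 largest shared rises and the 10 largest shared falls among genes called in each line without overlap and with a mean of at least 5 CPM, adjacent pairs among the 139, and up to 3 called members per list with the same sign in both lines. Other genes given are list members, or are said to lie outside the rule. Of 520 list genes 500 were matched by symbol and 20 by locus.

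The alternatives were DESeq2 1.42.0 size factors and its own test, other filters, the altered libraries as 1 group of 6, the replicate number as a block, limma 3.58.1 on log2(FPKM + 1) and log2(FPKM + 0.1), an adjusted p under 0.01 and leaving out each library. Leaving out both libraries that stood apart, and removing a length trend per library, were chosen after seeing the data.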

Additional observations from a re-analysis of the deposited data

Results flagged for a closer look

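The change against WT differed between the 2 lines in 24 of the 86 genes named by the rule, SR45a aside, by edgeR's test of SR45a-1a-OE against sr45a (adjusted p under 0.05 over all genes). Values are log2 differences, SR45a-1a-OE minus sr45a. They were positive for AT2G01422 (4.61), AT1G08310 (1.64), MGD3 (1.51), HSFA7B (1.32), HSFA1E (1.01), XTH5 (0.88), HSFA3 (0.84) and MGD2 (0.82). They were negative for CRA1 (−3.16), ICL (−2.87), MLS (−2.85), BHLH39 (−2.51), GSTF6 (−2.44), AT3G01345 (−2.18), BRU6 (−2.11), ESM1 (−1.62), LOX2 (−1.35), CYP83A1 (−0.86), XTH4 (−0.66), HSP90.3 (−0.64), BIP2 (−0.54), FRO3 (−0.53), FLA15 (−0.52) and CESA5 (−0.50). So AT2G01422 lay above WT in both lines and far higher in the overexpressor, while CRA1, ICL and MLS were higher in the mutant. The WT libraries do not enter the differences themselves but share the estimate of the spread, and 803 genes were called between the lines without WT replicate 2, against 1459.

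Among the 6 altered libraries taken as 1 group, a single library lay far from the others in 3 of the 86 genes by Dixon's criterion, which chance alone meets in about 1 in 20 groups. ENODL16 reached 56.2 CPM in SR45a-1a-OE replicate 1 with the next library at 38.3 CPM. AT3G02480 was lowest in SR45a-1a-OE replicate 2, at 18.3 CPM, with the next at 25.6 CPM. CDKB1;2 reached 2.64 CPM in 1 library with the next at 1.25 CPM.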

How the results depend on the processing

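The 4 counts were 1481 pooled calls, 1075 of them with the same sign in both lines and all altered libraries on one side, 139 genes called in each line and 1459 between the lines. DESeq2 gave 2301 pooled, 348 in each line and 2220 between the lines. An adjusted p under 0.01 gave 84, 76, 15 and 267. Treating the altered libraries as 1 group of 6, which puts the difference between lines into the spread, gave 96 pooled calls, all 96 on one side, and turned the value of SR45a (AT1G07350) from −2.57 to 0.39 (adjusted p = 0.91). With the replicate number as a block the counts were 563, 430, 62 and 575. Deviations from the genotype mean correlated between −0.331 and 0.186 for same-numbered libraries and between −0.302 and 0.336 for others. Deviations within a genotype of 3 libraries are tied to each other, so these values cannot decide whether the numbers pair samples. The labels do not say it. Leaving out 1 library at a time gave 42 to 2488 pooled calls, 40 to 1541 on one side, 21 to 230 in each line and 270 to 2653 between the lines. Without both libraries that stood apart 4160 genes, and with the length trend removed 2228, were called between the lines.

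Higher calls were 38.9% of the pooled calls, and 25.6% without WT replicate 1. Among genes called in each line they were 50.4%, 61.3% with limma on log2(FPKM + 0.1) and 60.8% without the libraries that stood apart. Between the lines they were 38.7%, and 27.6% and 27.1% with limma on log2(FPKM + 1) and log2(FPKM + 0.1). Other size factors and filters left all 4 counts within 1.5 times. All fitted members of the 139 kept their pooled sign in every alternative, which the lack of overlap in 138 of them makes likely beforehand. The cause of the changes was not tested. Most pooled calls had adjusted p-values between 0.01 and 0.05, and 30 of the 139 genes stayed under 5 CPM, where depth limits precision.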

Other observations

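Beyond the lists, several carbon-metabolism genes were lower in each line; they were chosen after their values were seen. PPC1, a phosphoenolpyruvate carboxylase, had log2 fold changes of −0.65 in SR45a-1a-OE and −0.52 in sr45a, and PPCK1, the kinase that activates this enzyme, had −0.64 and −1.10. Transporters were also among them: the cation exchanger CAX3 (−0.85 and −0.99), the copper transporter COPT2 (−0.63 and −0.89), the calcium pump ACA10 (−0.49 and −0.51) and the sugar transporter STP7 (−0.54 and −0.58). On the rising side were TSPO, annotated as a tryptophan-rich sensory protein-like protein (1.04 and 1.297), the nitrilase NIT2 (0.88 and 1.84), the ribonucleotide reductase subunit TSO2 (0.64 and 0.69) and the ferredoxin FD3 (0.65 and 0.62). All were called in each line by edgeR. The 139 genes were spread over the 5 chromosomes, at 0.58 to 0.821% of the genes tested on each.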
